A study of Homo sapiens with 6 samples.

Results

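The Kruppel-like factors (KLFs) are DNA-binding proteins that carry their zinc fingers at the C-terminus and recognize GC-rich and CACCC elements in promoters, the same kind of element that their relatives of the SP family bind. Their N-terminal parts differ and recruit either coactivators or corepressors, so that some members mostly activate genes and others mostly silence them. Many KLF genes are early response genes, whose short-lived transcripts change soon after a stimulus. The expression of 10 KLF genes was examined in OVCAR3, an established line derived from a high-grade serous ovarian adenocarcinoma. The members were KLF2, KLF3, KLF4, KLF5, KLF6, KLF7, KLF9, KLF10, KLF11 and KLF13, and each matched exactly 1 of the 47577 loci in the table by its symbol.

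PolyA RNA was sequenced from OVCAR3 cells kept in DMSO, the solvent (n = 3), or in 200 nM THZ531 (n = 3), in both cases for 6 h. THZ531 is a covalent inhibitor of CDK12 and CDK13, kinases that phosphorylate the tail of RNA polymerase II during elongation, and the comparison asks which genes depend on them in ovarian cancer cells. The titles of the samples and the study's methods give THZ531. In the treatment field of the samples stands THZ1, a related but different compound, with the dose unchanged. The names are not interchangeable, and the titles were followed. All libraries come from 1 cell line at 1 dose and 1 time, and whether the replicates were separate cultures is not stated in the labels, so p-values measure only the spread between these libraries. The values are read counts divided by a size factor of each library (normalized reads), and fewer cells of a type and less RNA per cell cannot be told apart in them.

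Between 53054048 and 70986130 reads per library fell on genes, and the summed normalized reads were 1.18-fold higher in THZ531. Serous and epithelial markers were present (11 of 11 tested, from 442092 to 453201 summed normalized reads in DMSO and from 563054 to 575628 in THZ531). The keratin genes KRT7, KRT8 and KRT18 made up most of these sums, and ESR1 was low, at 59.4 in DMSO and 56.4 in THZ531. Of the 11 markers, PAX8, a transcription factor of the Mullerian lineage, fell from 11272 to 1241 normalized reads, and none was called higher. Of 11 markers of immune, endothelial and stromal cells, 6 passed the minimum for testing, and the sum of the list ranged from 1243 to 1255 in DMSO and from 2306 to 2552 in THZ531. COL1A1, a collagen of stromal cells, rose from 995 to 2190 and made up most of that sum. The other 5 tested markers were not called, with log2 fold changes of 0.55 for COL1A2, 0.13 for CDH5, -0.16 for PECAM1, -0.39 for PTPRC and -0.46 for ACTA2. CD3E was at 0 in all 6 libraries, and the part of these markers in the results was not tested.

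The promoters of the members that changed most and least are shown to set their base composition beside the expression values. The sequences are from RefSeq on GRCh38.p14, cover 250 bases before and 50 bases after the start site, and are written 5′ to 3′ on the strand of the gene. No promoter was matched for KLF3 and KLF10. Capitals mark the motifs found on either strand, among the GC box (GGGCGG), the CACCC box (CACCC), the TATA box (TATAAA), the CCAAT box (CCAAT), the cyclic AMP response element (TGACGTCA), the AP-1 site (TGACTCA) and the CArG box. The KLF9 window lies at chr9:70414608-70414907 (minus strand), that of the downstream start of KLF11 at chr2:10043971-10044270 (plus strand), and that of KLF6 at chr10:3785160-3785459 (minus strand).
KLF9: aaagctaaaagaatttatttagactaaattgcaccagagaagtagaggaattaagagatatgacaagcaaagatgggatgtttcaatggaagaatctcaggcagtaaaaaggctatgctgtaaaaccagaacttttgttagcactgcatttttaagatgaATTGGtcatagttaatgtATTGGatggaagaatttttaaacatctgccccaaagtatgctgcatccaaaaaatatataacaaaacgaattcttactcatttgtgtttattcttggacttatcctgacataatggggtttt
KLF11: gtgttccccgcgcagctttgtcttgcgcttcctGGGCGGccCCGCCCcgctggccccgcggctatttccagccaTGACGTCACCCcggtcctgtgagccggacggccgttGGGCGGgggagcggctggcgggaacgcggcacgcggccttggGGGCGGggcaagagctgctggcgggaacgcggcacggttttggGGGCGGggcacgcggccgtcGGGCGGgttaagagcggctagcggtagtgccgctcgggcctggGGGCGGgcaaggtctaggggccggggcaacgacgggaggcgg
KLF6: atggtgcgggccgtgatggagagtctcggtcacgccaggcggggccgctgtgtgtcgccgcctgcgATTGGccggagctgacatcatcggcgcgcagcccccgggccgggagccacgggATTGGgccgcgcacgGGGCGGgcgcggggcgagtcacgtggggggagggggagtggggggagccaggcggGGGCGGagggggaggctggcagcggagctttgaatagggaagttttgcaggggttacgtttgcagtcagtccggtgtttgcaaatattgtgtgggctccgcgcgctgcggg

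The KLF9 window had a GC content of 32.7% and held no GC box, with 2 CCAAT boxes on the opposite strand as its only matches. By contrast, the KLF11 window had a GC content of 75.3% and held 7 GC boxes, as well as a cyclic AMP response element that overlaps a CACCC box. The window of the upstream start of KLF11, not shown, had a GC content of 77.3% and held 2 GC boxes and no other match. The KLF6 window had a GC content of 70.7%, 2 GC boxes and 2 CCAAT boxes. Among all 35116 promoters of the same length, the median GC content was 58.7%, 45.0% held a GC box, 34.6% a CCAAT box, 59.9% a CACCC box, 11.5% a TATA box, 4.95% an AP-1 site, 1.85% a cyclic AMP response element and 1.29% a CArG box. Hence the members with the largest rises, KLF9 and KLF11, lay on opposite sides of the median for GC content. The window of KLF2 held 6 GC boxes, that of KLF4 held 4 and that of KLF13 held 3, while those of the upstream and downstream starts of KLF5 held 0 and 2.

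As a whole, the 9 tested members were shifted towards higher values in THZ531. The other KLF genes tested did not share a direction. By log2 fold change, KLF16 rose (0.88), KLF8 fell (-1.94), and KLF14 (-0.96) and KLF12 (0.20) were not called. Of the 10 members, 9 passed the minimum of 10 normalized reads in at least 3 libraries, and 5 of these were called higher (KLF4, KLF5, KLF9, KLF11 and KLF13), which takes a limma p of at most 0.05 together with a change of 1.5-fold or more. Across all 17568 loci tested, 15.7% were called higher and 23.9% were called lower. No member was called lower by limma, edgeR or DESeq2. Under the deposited scaling no member had a negative log2 fold change in limma, so that 0 fell at an unadjusted p under 0.05. The median log2 fold change of the 9 members was 0.59, compared with -0.01 over all loci. With an adjusted p of at most 0.05 and no limit on fold, 7 of 9 members were higher, as were 34.6% of all loci. In 8 of 9 members every THZ531 library was above every DMSO library, a pattern found in 36% of all loci.

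**Figure D1:**
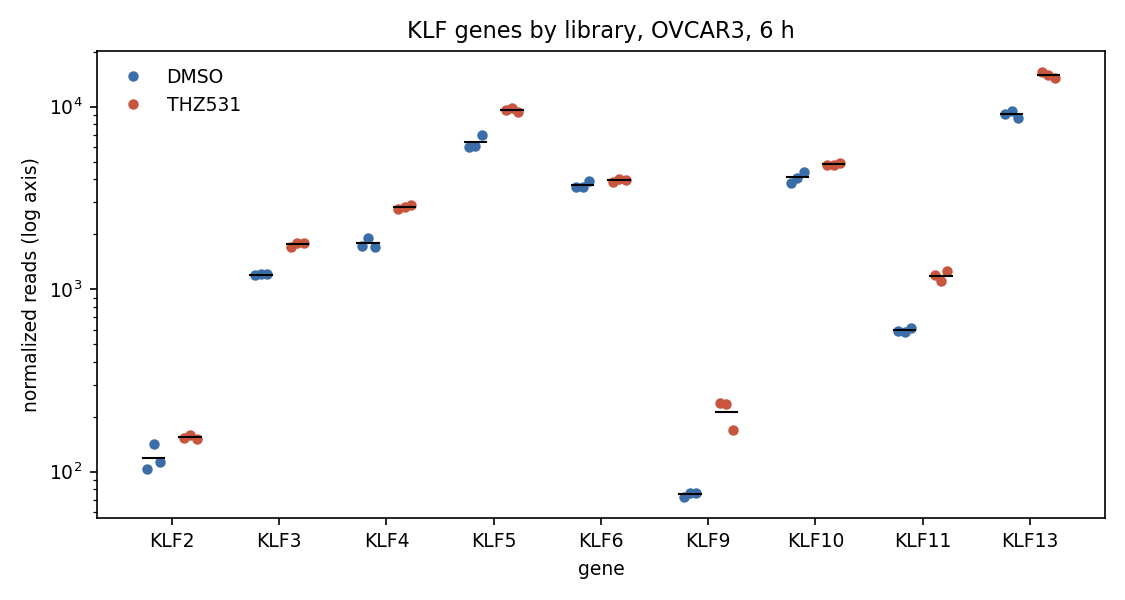
Normalized reads of the 9 tested KLF genes in each library on a log axis, with DMSO in blue and THZ531 in red (points: libraries, bars: means of n = 3). The groups are separate for every gene except KLF6, KLF9 shows the widest gap, and 1 THZ531 library of KLF9 lies at 168, below the others.

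The size of the shift depends on how the libraries are scaled. When the libraries were scaled to the same total, the median of all loci moved to -0.25 on the log2 scale, and the calls among the members dropped to KLF9 and KLF11, with 9.38% of all loci called higher and 32% lower. RPL34, a ribosomal protein gene used by the study as a reference transcript, itself had 12999 ± 1180 normalized reads in DMSO and 18247 ± 86.8 in THZ531 (SD, n = 3). After scaling to RPL34, the median of all loci moved to -0.50, KLF9 alone among the members was called higher, and 6.14% of all loci were higher and 42.8% lower. The members had a median of 0.34 under the former scaling and of 0.09 under the latter. A scaling moves the members and all loci together, so the gap between their medians stays nearly as it was.

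**Figure D2:**
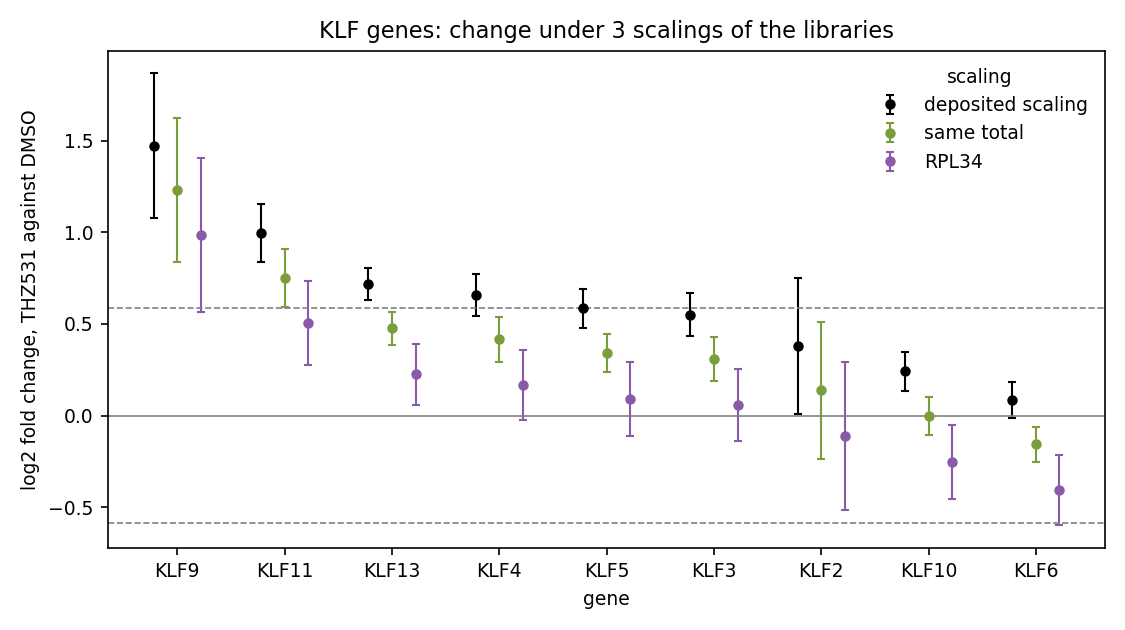
Log2 fold change of each tested KLF gene (THZ531 against DMSO, points) with its 95% confidence interval (bars) under the deposited scaling, scaling to the same total and scaling to RPL34. Dashed lines mark a fold change of 1.5. KLF9 stays above the upper line under all 3 scalings, at 1.47, 1.23 and 0.98, while KLF6, KLF10 and KLF2 lie below 0 with RPL34.

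Among the members, KLF9, KLF10, KLF11 and KLF13 are repressors that bind the SIN3A corepressor. KLF9, KLF11 and KLF13 had the largest rises of the members, whereas KLF10 was not called. KLF9 is a hormone-responsive member, induced by glucocorticoids and thyroid hormone in many tissues. It stood at 73.0, 76.1 and 76.6 normalized reads in the DMSO libraries and at 237, 234 and 168 in the THZ531 libraries. The DMSO values were tight, and THZ531 replicate 3 was well below the other treated libraries but still above every control. The log2 fold change of KLF9 was 1.47 (SE 0.19, 95% confidence interval 1.08 to 1.87, limma adjusted p = 2.96e-06), which only 4.51% of the tested loci exceeded. KLF9 rested on between 82 and 206 reads per library, and its interval was wider than that of any other member.

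KLF11 is, together with KLF10, an early gene of transforming growth factor beta signaling and restrains cell growth. KLF11 stood at 587, 586 and 611 normalized reads in DMSO and at 1200.3, 1105 and 1259 in THZ531, so that the groups were far apart. Its log2 fold change was 1.00 (SE 0.074, limma adjusted p = 6.51e-09), or 0.75 after scaling to the same total and 0.50 after scaling to RPL34, where it no longer passed the fold threshold. KLF10, by contrast, stood at 3808, 4066 and 4400.4 in DMSO and at 4809, 4761 and 4912 in THZ531. The groups of KLF10 did not overlap, yet its log2 fold change of 0.24 (95% confidence interval 0.13 to 0.35, limma adjusted p = 0.000498) was below the fold threshold. It was -0.0018 for equal totals and -0.25 for RPL34 (limma adjusted p = 0.0270), so KLF10 has no direction that holds across scalings.

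KLF13 regulates cytokine genes in lymphocytes and lipid genes in other tissues, and it had the most reads of all members. It stood at 9125, 9461 and 8683 normalized reads in DMSO and at 15486.5, 14987 and 14401 in THZ531. All treated libraries exceeded all controls by a margin larger than the spread within either group. The log2 fold change of KLF13 was 0.72 (SE 0.041, limma adjusted p = 2.88e-10), and its confidence interval, 0.63 to 0.81, was the narrowest of the members. Scaling to the same total gave 0.48 and scaling to RPL34 gave 0.23, both below the fold threshold.

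KLF2, KLF4, KLF5, KLF6 and KLF7 act mainly as activators. Of the 4 that could be tested, 2 were called higher, against 15.7% of all loci. Neither call held with the same total or with RPL34. KLF4, a factor of epithelial differentiation and of the pluripotent state, stood at 1729, 1909.6 and 1709.9 normalized reads in DMSO and at 2751, 2804 and 2878 in THZ531. The lowest treated library was thus well above the highest control. Its log2 fold change was 0.66 (SE 0.055, limma adjusted p = 2.46e-08), with 0.42 for the same total and 0.17 for RPL34, where it was not called. KLF5, a growth-promoting factor of proliferating epithelium, stood at 6019, 6121 and 6989 in DMSO and at 9562, 9786 and 9291 in THZ531.

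The groups of KLF5 were separate, but its change lay on the fold threshold itself. The mean went from 6376 ± 533 to 9546 ± 248 normalized reads (SD, n = 3), with a log2 fold change of 0.59 (SE 0.051, limma adjusted p = 3.88e-08) and a fitted fold of 1.5002. The call of KLF5 was lost in edgeR (0.56) and DESeq2 (0.58), at a pseudocount of 10, with the same total (0.34), with RPL34 (0.09) and at a fold of 2. It was also lost without DMSO replicate 1 (0.55), DMSO replicate 2 (0.56), THZ531 replicate 1 (0.58) or THZ531 replicate 2 (0.57). Leaving out each library in turn gave values between 0.55 and 0.65.

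KLF2, best known for keeping endothelial cells and lymphocytes quiescent, was low in these cells. It stood at 104, 141 and 113 normalized reads in DMSO and at 154, 158 and 150.2 in THZ531. The treated libraries lay close together above a scattered control group, and the log2 fold change of 0.38 had a wide interval (0.0076 to 0.75) and a limma adjusted p of 0.0654. Its unadjusted p in limma (0.0460) passed, but its fitted fold of 1.30 was below the fold threshold, so KLF2 was not called, and with RPL34 its value was -0.11. KLF6, which responds to tissue injury and acts as a tumor suppressor, stood at 3611, 3643 and 3923 in DMSO and at 3855, 4013 and 3984 in THZ531. The groups of KLF6 overlapped, because DMSO replicate 3 exceeded THZ531 replicate 1. Its log2 fold change was 0.09 (95% confidence interval -0.01 to 0.18, limma adjusted p = 0.112). Scaling to equal totals gave -0.16 (limma adjusted p = 0.00629) and scaling to RPL34 gave -0.41 (limma adjusted p = 0.000538), falls below the fold threshold.

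KLF7, a close relative of KLF6 with a role in neuronal development, was listed at 0 in all 6 libraries and could not be tested. A count of 0 allows at most 3 reads counted on KLF7, or from 2.38 to 3.78 normalized reads depending on the library. This limit covers counting error only. The microRNA locus MIR7845, 99 bases long and inside KLF7, had between 0 and 5.68 normalized reads. Whether reads of KLF7 were assigned to other loci was not tested. Of the 26793 loci with a symbol, 25.5% were at 0 in all libraries. KLF3, which recruits the corepressor CtBP, stood at 1193, 1212 and 1205 normalized reads in DMSO and at 1713, 1780.1 and 1799.8 in THZ531. These groups were far apart compared with their spread, and the log2 fold change was 0.55 (SE 0.056, limma adjusted p = 2.45e-07), just short of the fold threshold. KLF3 passed it only when the libraries were scaled to their upper quartile (0.67), among the alternatives tried.

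Levels of different genes can be compared only per length, and they were set per kilobase of annotated exon. In DMSO, KLF5 had the highest level, at 1733 ± 145 normalized reads per kilobase (SD, n = 3), followed by KLF10 at 1071 ± 77.8 and KLF13 at 964 ± 41.4. The ranges of KLF10 and KLF13 overlapped, so these neighbors did not differ beyond their spread. Then came KLF6 at 607, KLF4 at 487, KLF3 at 178, KLF11 at 129, KLF2 at 42.3 and KLF9 at 14.5, each apart from its neighbor. KLF5 thus accounted for 33.2% of the summed level of the members, and KLF9 for 0.277%.

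In THZ531 the order changed at 2 places. KLF13, at 1586 ± 57.6 per kilobase, stood above KLF10, at 1263 ± 20.3, and KLF4, at 768 ± 17.5, stood above KLF6, at 644 ± 13.7, in both cases without overlap. KLF3 and KLF11, at 261 and 259, no longer differed beyond their spread. KLF5 remained the highest, at 2595 ± 67.3, and KLF9 remained the lowest, at 41.0 ± 7.45, beneath KLF2 at 54.6. The order was the same in both groups when the length of the canonical transcript was used, an alternative added after the values were seen. Thus the tested member with the largest fold change was also the least abundant of the tested members in both groups.

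**Figure D3:**
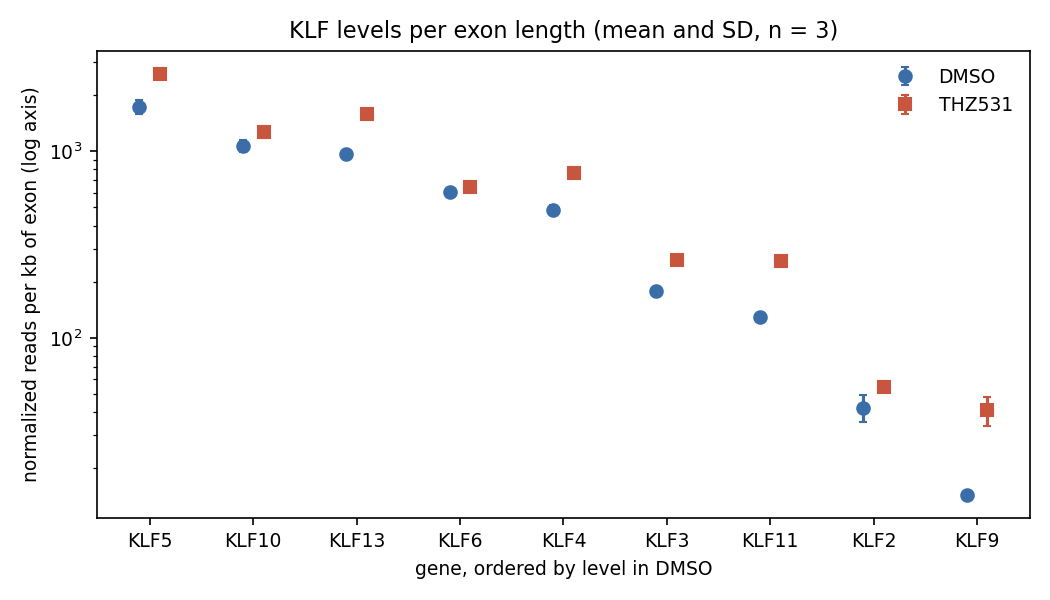
Level of each tested KLF gene in normalized reads per kilobase of exon on a log axis (mean and SD, n = 3), ordered by the level in DMSO. The levels run from 1733 for KLF5 to 14.5 for KLF9 in DMSO, and in THZ531 KLF13 lies above KLF10 and KLF4 above KLF6.

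Ratios between members within a library are free of the scaling, and 4 of 5 fixed pairs could be computed, since KLF7 was at 0. With 3 libraries against 3, the smallest p of the exact permutation test (two-sided) is 0.1, so no ratio could reach 0.05. The log2 ratio of KLF10 to KLF11 was 2.69, 2.79 and 2.85 in DMSO and 2.00, 2.11 and 1.96 in THZ531. The normalized reads of KLF10, not corrected for length, exceeded those of KLF11 6.86-fold in DMSO and 4.07-fold in THZ531, with no overlap and a difference of -0.75 (exact permutation p = 0.1, adjusted 0.133). For KLF9 to KLF13 the log2 ratio was -6.95, -6.94 and -6.81 in DMSO and -6.03, -5.99 and -6.41 in THZ531. The groups were separate, with a difference of 0.75 (exact permutation p = 0.1, adjusted 0.133), although THZ531 replicate 3 was nearer to the controls.

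The ratio of KLF2 to KLF4, which share roles in endothelium, was in every treated library below all controls. Its mean log2 value was -3.90 ± 0.15 in DMSO and -4.18 ± 0.061 in THZ531, with a difference of -0.28 (exact permutation p = 0.1, adjusted 0.133). By contrast, the ratio of KLF4 to KLF5 overlapped between the groups, at -1.84 ± 0.18 in DMSO and -1.76 ± 0.063 in THZ531. Its difference was 0.07 (exact permutation p = 0.8, adjusted 0.8), and it was -0.024 without DMSO replicate 3. These factors have opposing roles in epithelial growth, and the difference in their ratio was smaller than the spread within DMSO.

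**Figure D4:**
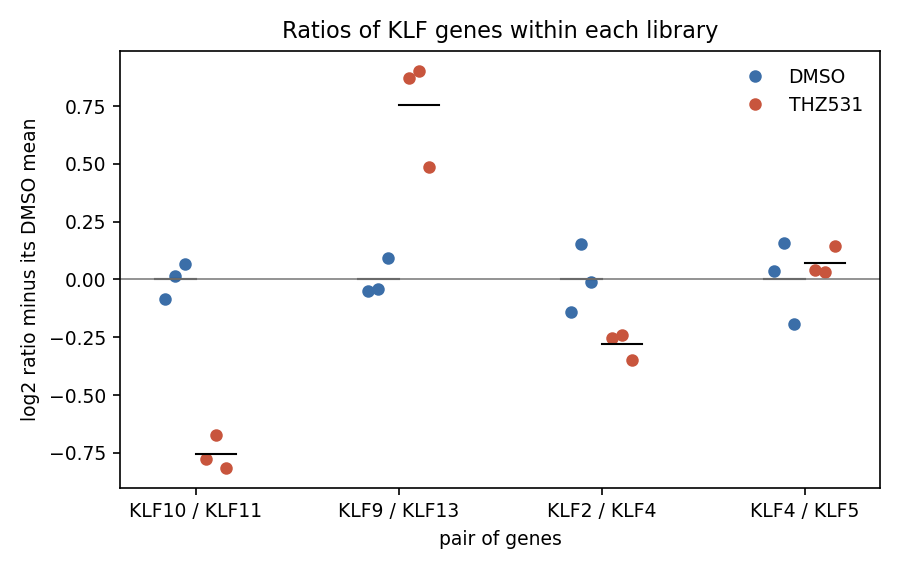
Log2 ratio of 4 pairs of KLF genes in each library, minus the mean of the DMSO libraries (points: libraries, bars: means of n = 3). KLF10 to KLF11 lies 0.75 lower and KLF9 to KLF13 lies 0.75 higher in THZ531, and KLF4 to KLF5 overlaps.

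The 9 tested members also differed in gene structure. Between the log2 fold change and the length of the gene, Spearman's rho was 0.47 and Pearson's r was 0.41 across genes, and for the number of exons rho was -0.35. For the length of the exons rho was 0.15, and for the mean in DMSO rho was -0.28 and Pearson's r was -0.53. These are descriptions over 9 genes that share the same libraries. KLF9 and KLF13, with 2 exons each, and KLF4, with 5, were called higher, whereas KLF2, with 3 exons, and KLF3, with 6, were not. Of the members with 4 exons, KLF5 and KLF11 were called higher and KLF6 and KLF10 were not.

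Transcription at the borders of the KLF genes was examined through the other loci in the table. Within 10 kilobases of the members lay 8 loci without a symbol, 5 of them in KLF13, and none passed the minimum for testing, the highest value being 5.68 normalized reads. Of 6 loci with a symbol, which were chosen after their values were seen, 4 passed. LOC101927245, which lies 522 bases from the 5′ end of KLF10, had 61.9, 59.4 and 63.0 normalized reads in DMSO and 17.6, 36.4 and 33.0 in THZ531. It fell while KLF10 was not called, with a log2 fold change of -1.12 (SE 0.32, limma adjusted p = 0.00593), and the call held under all 19 alternatives.

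LOC101929882 lies 148 bases from KLF11 and had 34.1, 42.7 and 32.7 normalized reads in DMSO and 13.9, 23.9 and 20.5 in THZ531. It fell next to a gene that rose, with a log2 fold change of -0.90 (SE 0.37, limma adjusted p = 0.0393), but the call was lost without DMSO replicate 2 or THZ531 replicate 1. KLF3-AS1 overlaps the start of KLF3 and had 8.73, 12.1 and 12.0 normalized reads in DMSO and 13.9, 22.7 and 44.4 in THZ531. It was called higher, at a log2 fold change of 1.09 (limma adjusted p = 0.0599), but when each library was left out in turn the call held in 1 of 6 fits, with values between 0.67 and 1.47. The counting of reads by strand is not given in the sources used here, so reads of KLF3 and KLF3-AS1 may not be fully separated. CYS1, near KLF11, was not called.

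Other members of the KLF and SP families bind similar elements. Of 17 such relatives, 12 were tested, 3 were called higher and 2 lower, with a median log2 fold change of 0.38. These shares are near those of all loci, 15.7% higher and 23.9% lower. SP6, a factor of tooth and skin development, rose from 366 ± 32.9 to 921 ± 49.9 normalized reads (SD, n = 3, log2 fold change 1.33). KLF16 rose from 974 to 1788 (0.88) and SP4 from 320 to 569 (0.83). KLF8, which recruits CtBP as KLF3 does, fell from 53.4 ± 7.65 to 13.4 ± 3.82 (-1.94), and SP2 fell from 1268 to 516 (-1.30). SP1 and SP3, the ubiquitous members, had log2 fold changes of 0.55 and 0.56, near that of KLF3, and like it were not called.

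The KLFs act through coactivators and corepressors. Of 15 such cofactors tested, 3 were called higher and 3 lower, with a median of 0.32, and these shares too are near the 15.7% and 23.9% of all loci. The coactivator genes CREBBP (4655 to 8274 normalized reads, log2 fold change 0.83) and EP300 (4219 to 6656, 0.66) rose, as did SAP30 (80.7 to 141, 0.79), a subunit of the SIN3 complex. SIN3B, the paralog of SIN3A, fell from 586 ± 25.3 to 192 ± 30.6 (-1.62), and FHL3, a partner of KLF3, fell from 355 to 160 (-1.14). SIN3A, the corepressor bound by KLF9, KLF10, KLF11 and KLF13, had 6713 normalized reads in DMSO and 6982 in THZ531 (0.06) and was not called. CTBP1 and CTBP2, partners of KLF3, had log2 fold changes of -0.07 and 0.07 and were not called.

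Of 25 tested regulators of KLF genes and proteins, 4 were called higher and 4 lower, against 15.7% and 23.9% of all loci, and the median was 0.03. MAP2K5, MAPK7 and MEF2C, which belong to the ERK5 cascade that induces KLF2 and KLF4, fell, with log2 fold changes of -0.72, -1.23 and -3.15. MEF2C had 120 ± 15.5 normalized reads in DMSO and 13.1 ± 4.96 in THZ531 (SD, n = 3). Another factor of the same cascade, MEF2D, rose from 1981 to 3436 (0.79). The ubiquitin ligase genes SIAH1 (450 to 1037, 1.20) and SMURF1 (1932 to 4223, 1.13) rose, and so did TGFBR1 (1638 to 2574, 0.65), a receptor of transforming growth factor beta. BAP1, a deubiquitinase that stabilizes KLF5 protein, fell from 4073 to 2376 (-0.78).

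Of 21 genes described as targets of KLFs, 20 were tested, 8 were called higher and 1 lower, against 15.7% and 23.9% of all loci, with a median of 0.45. CDKN1C, an inhibitor of the cell cycle, rose from 187 ± 33.1 to 754 ± 9.97 normalized reads (SD, n = 3, log2 fold change 2.03). SMAD7, an inhibitor of transforming growth factor beta signaling that KLF10 and KLF11 repress, rose from 1641 to 3486 (1.09). ATF3, a stress factor, rose from 771 to 1550.2 (1.01). EGFR, the receptor of epidermal growth factor, fell from 4578 to 884 (-2.37). CCND1, a cyclin gene activated by KLF5, had 15063 normalized reads in DMSO and 14668 in THZ531 (-0.04) and was not called.

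**Figure D5:**
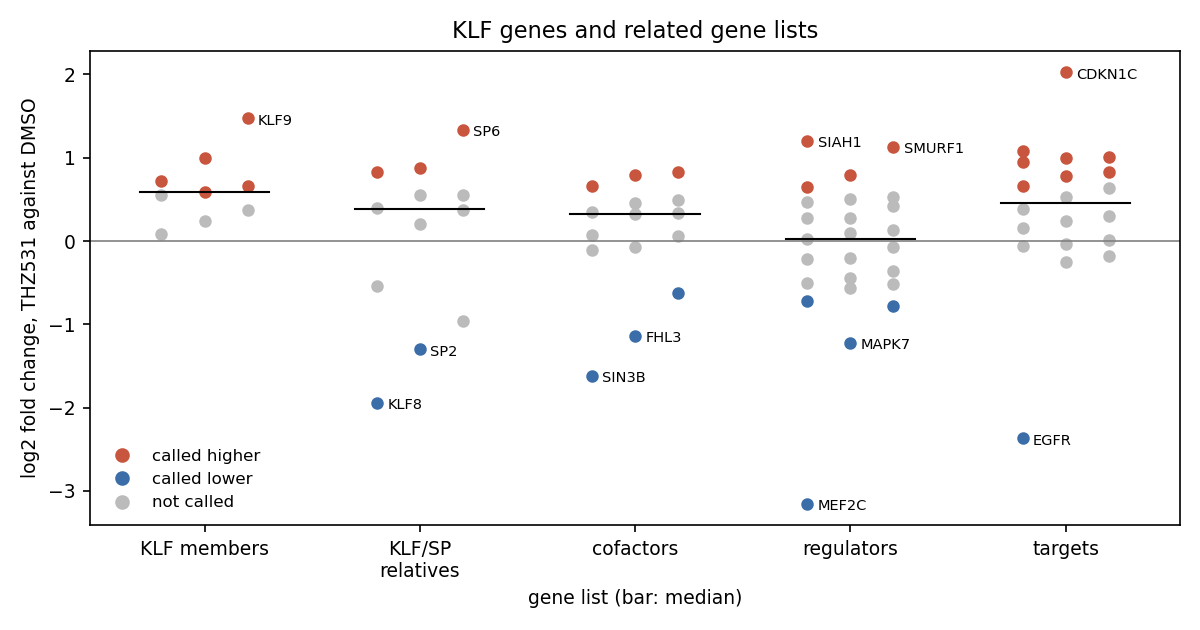
Log2 fold change (THZ531 against DMSO) of the tested genes in the KLF group and in 4 related lists, with each point 1 gene, red for called higher, blue for called lower and grey for not called, and bars at the medians. The medians are 0.59 for the KLF genes, 0.38 for relatives, 0.32 for cofactors, 0.03 for regulators and 0.45 for targets.

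With the same total, the medians of the relatives, cofactors, regulators and targets were 0.14, 0.08, -0.22 and 0.21, and with RPL34 they were -0.10, -0.17, -0.47 and -0.04. Among the named genes, SP6, SIAH1, SMURF1, CDKN1C and SMAD7 stayed higher and SP2, SIN3B, FHL3, MAPK7, MEF2C and EGFR stayed lower under all 19 alternatives. KLF8 kept its call wherever it was tested. SAP30, EP300, MEF2D and TGFBR1 lost the call with the same total and with RPL34. KLF16, SP4, CREBBP and ATF3 kept it with the same total but lost it with RPL34. The largest limma adjusted p among the genes of these lists named as changed was 0.00173, that of SAP30.

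The profile of KLF9 over the 6 libraries was most like those of SOX4, BCL6 and ZNF124, by the Euclidean distance of log2 values taken from the DMSO mean, among 11819 loci with a symbol and a mean of at least 100. The distances were 0.266, 0.267 and 0.272. Because values were taken from the DMSO mean, this distance mainly picks genes with a log2 fold change near that of KLF9. Those of SOX4 and BCL6 were 1.46 and 1.49, and shared regulation was not tested. SOX4, a factor of progenitor cells, stood at 4010.0, 4358 and 4148 normalized reads in DMSO and at 12053, 11783 and 10625 in THZ531. BCL6, a transcriptional repressor of germinal centers, stood at 866, 927 and 871 in DMSO and at 2583, 2599.6 and 2306 in THZ531. ZNF124, a zinc finger gene, had a log2 fold change of 1.47.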

How the data were processed

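PolyA RNA from OVCAR3 cells (3 DMSO and 3 THZ531 libraries, stranded mRNA kit, 150 bp paired-end reads per the study's methods) was mapped to hg38 with STAR, for which the submitters' processing notes give version 2.7.5a, and counted on the FAST DB genes with featureCounts. The authors deposited a signal, namely counts divided by a DESeq2 size factor per library, which is not corrected for gene length. In each library 100% of the deposited values were whole multiples of 1 step (within 0.01 reads), so the reads could be recovered.

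The scale for testing was log2(value + 1). Of all loci, the 17568 that reached 10 normalized reads in 3 or more libraries entered a limma fit (version 3.58.1, R 4.3.3) with a trended variance and with group as its only term. Calls combine a change of 1.5-fold or more with p of at most 0.05 before adjustment, and adjusted p-values are Benjamini-Hochberg values over all loci tested. With the pseudocount of 1, fold changes of low genes are understated. Ratios were compared with exact permutation tests over libraries. The fits were tested on simulated data. Exon lengths are from GENCODE 44. The 19 alternatives include edgeR 4.0.16 and DESeq2 1.42.0 on the recovered reads.

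Members and lists were chosen with earlier results of these data known. The text names all members, from each related list the called genes with a mean of at least 100 and separate groups (up to 4 by size of change), genes behind counts of 5 or fewer (except 1 cofactor, which is counted but not reported here), the 3 loci most like KLF9, and RPL34. KLF12, KLF14, SP1, SP3, SIN3A, CTBP1, CTBP2, CCND1 and the loci near members were added after their values were seen. Same-numbered libraries were not treated as pairs, since their deviations did not correlate (r from -0.0393 to 0.0186).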

Additional observations from a re-analysis of the deposited data

How the results depend on the processing

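The number of KLF genes called higher was 5 and became 2 with the same total, 1 with RPL34 and 1 at a fold of 2. It was between 4 and 5 when each library was left out. With the replicate block it stayed at 5, and the block changed the count of no list by over 1.5 times. For the relatives, the count of higher calls was 5 with the upper quartile, 1 with RPL34 and 1 at a fold of 2, and that of lower calls was 1 with a minimum of 50, 4 with the same total and 4 with RPL34. For the cofactors, higher calls were 1 with the same total, 0 with RPL34 and 0 at a fold of 2. For the regulators, higher calls were 2 with the same total, 2 with RPL34 and 2 at a fold of 2, and lower calls were 9, 11 and 2. For the targets, higher calls were 2 with RPL34 and 3 at a fold of 2, and lower calls were 3 with RPL34. Of all loci, 9.38% were called higher and 32% lower with the same total, and 6.14% and 42.8% with RPL34. The lower calls of the 25 regulators under these scalings are near those shares. For the other settings the shares of all loci are not given here, so those counts describe the lists only. The log2 fold change turned negative for KLF2 with RPL34 (-0.11), for KLF6 with the same total (-0.16) and RPL34 (-0.41), and for KLF10 with the same total (-0.0018) and RPL34 (-0.25). These shifts follow from the construction of the scalings, which move all loci together. The ratio of KLF4 to KLF5 ranged from -0.024 to 0.15 when each library was left out. Of 171 values of the 9 members under alternatives, 147 kept their direction and side of the threshold, 18 lost the call, 1 gained it and 5 changed sign. Other minimums, the replicate block, a variance without trend, the adjusted p and the fold of 2 left each member's log2 fold change as it was. Part of the 147 was therefore fixed in advance, and the count does not measure robustness. KLF2 and KLF9 rested on the fewest reads of the tested members, and KLF7, listed at 0, could not be tested.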
